A study of Homo sapiens with 17 samples.

Results

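FOXA2 bound 5207 regions of the U2OS genome at which neither form of FOXA1 had a peak. U2OS is a human osteosarcoma cell line. These regions were found by merging overlapping peaks (at least 1 bp) of 4 lists, those of FOXA1 and FOXA2 at full length and with the C-terminal domain deleted (dCTD), on chromosomes 1 to 22 and X. A merged site was kept where both FOXA2 lists and neither FOXA1 list had a peak. The 5207 sites are 5.04% of all 103347 merged sites and 22.9% of the 22736 sites held by both FOXA2 lists. They are called FOXA2-only sites here and were selected on the presence of peaks in these 4 lists, so their FOXA1 and FOXA2 values are given as a description. The comparisons are with 9465 sites present in all 4 lists, called shared sites, and with 4903 sites of both FOXA1 lists that neither FOXA2 list held, called FOXA1-only sites.

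The study expressed Flag-tagged transcription factors in stable U2OS lines with a Tet-on promoter and mapped them by Flag ChIP-seq, in which DNA crosslinked to the tagged protein is recovered and sequenced. Cells were induced with doxycycline for 4 days, at 500 ng/ml by the treatment label (the extraction protocol gives another unit). The groups used were FOXA1, FOXA2 and FOXA3, each at full length and as dCTD, SOX2 at full length, and a fusion of SOX2 with the FOXA2 CTD. Each of these 8 groups had 2 biological replicates but 1 combined peak list, so differences between lists have no replicate check, and no test between conditions was made. Whether a line is 1 clone is not given, the factors come from a transgene, and levels of the proteins were not analysed here. Positions are those of the lists (hg38, counted from 1). Depth is unknown, and all intervals below cover counting error over sites, or over promoter windows, only.

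FOXA1 and FOXA2 are forkhead transcription factors and are known as pioneer factors because they can engage DNA in closed chromatin. They act in endoderm, where FOXA2 is needed for foregut, liver and pancreas, and FOXA1 is also a cofactor of steroid receptors in breast and prostate. Their DNA-binding domains are nearly alike and recognise the same core motif, TGTTTAC, while the sequences outside that domain, such as the CTD, differ more. SOX2 binds DNA through an HMG box and recognises an unrelated motif.

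The sequences under FOXA2-only sites could be read where a site lay on a promoter window, and the motif that FOXA proteins bind was found there more often than in promoters at large. RefSeq promoter windows (GRCh38.p14) run from 250 bases before to 50 after the start of a gene. Of the 224 windows of protein-coding genes touched by a FOXA2-only site, 30 held TGTTTAC on either strand, or 13.4% (Wilson 95% interval 9.54 to 18.5). The share was 2.86% of all 22012 such windows, 8.29% of the 181 windows at shared sites (5.09 to 13.2) and 3.70% of the 54 windows at FOXA1-only sites (1.02 to 12.5). Printed next are the 250 bases before the start of 5 genes, those with the strongest FOXA2-only sites among windows that held the motif before the start. AP4M1, whose divergent window overlaps that of MCM7, was left out. The motif, or its reverse complement, is in capitals, and the sequences were chosen after the matches were known.

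DDX17: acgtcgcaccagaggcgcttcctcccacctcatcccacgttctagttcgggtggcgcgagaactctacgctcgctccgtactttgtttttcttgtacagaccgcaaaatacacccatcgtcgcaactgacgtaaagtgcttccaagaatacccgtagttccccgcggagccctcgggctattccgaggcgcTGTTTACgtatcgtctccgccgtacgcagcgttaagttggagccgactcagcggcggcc
ASDURF: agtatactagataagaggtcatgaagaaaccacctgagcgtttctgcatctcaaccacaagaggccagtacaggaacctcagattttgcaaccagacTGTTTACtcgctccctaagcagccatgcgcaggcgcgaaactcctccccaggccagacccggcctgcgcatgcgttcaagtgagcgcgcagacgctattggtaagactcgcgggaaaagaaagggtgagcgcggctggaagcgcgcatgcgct
MCM7: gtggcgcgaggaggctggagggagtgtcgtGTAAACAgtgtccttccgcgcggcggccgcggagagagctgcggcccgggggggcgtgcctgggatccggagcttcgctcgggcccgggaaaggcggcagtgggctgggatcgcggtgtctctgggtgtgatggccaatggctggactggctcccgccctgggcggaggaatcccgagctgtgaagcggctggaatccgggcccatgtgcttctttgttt
DHX8: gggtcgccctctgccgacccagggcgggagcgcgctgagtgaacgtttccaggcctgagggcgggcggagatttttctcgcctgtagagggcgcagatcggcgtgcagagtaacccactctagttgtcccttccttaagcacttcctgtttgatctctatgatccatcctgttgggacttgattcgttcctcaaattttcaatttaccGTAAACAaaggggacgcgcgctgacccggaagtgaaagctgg
BTG1: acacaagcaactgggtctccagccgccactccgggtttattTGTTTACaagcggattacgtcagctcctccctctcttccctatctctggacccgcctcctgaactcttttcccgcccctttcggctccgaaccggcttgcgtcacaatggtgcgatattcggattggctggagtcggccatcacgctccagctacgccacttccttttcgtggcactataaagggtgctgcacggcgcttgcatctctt

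These stretches are, in order, chr22:38506312-38506561 on the minus strand, chr2:189661209-189661458 on the plus strand, chr7:100100530-100100779 on the minus strand, chr17:43483725-43483974 on the plus strand and chr12:92145847-92146096 on the minus strand. DDX17 encodes an RNA helicase, MCM7 a subunit of the replicative helicase, DHX8 a helicase of the spliceosome and BTG1 an inhibitor of proliferation. ASDURF shares its window with ASNSD1. The motif began 59 bases before the start in DDX17, 153 in ASDURF, 220 in MCM7, 42 in DHX8 and 209 in BTG1. At DDX17 the site had a −log10 p, which is the authors' measure of peak strength, of 3.62 and 15.1 in the replicates of full-length FOXA2 and of 8.60 and 5.08 in those of FOXA2 dCTD. The ASDURF site had 4.65 and 3.25 at full length and 10.1 and 6.70 as dCTD. At MCM7 the values were 6.68 and 2.96 at full length and 5.86 and 5.86 as dCTD. The ASDURF and DHX8 sites also had a FOXA3 dCTD peak, and those of DDX17, MCM7 and BTG1 did not.

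A match in a promoter did not have to lie at the peak. Over the 30 windows, the full-length FOXA2 summit was 0 to 888 bp from the nearest TGTTTAC, with a median of 109 bp, and within 100 bp in 12 of them. At the 15 windows of shared sites that median was 97.0 bp, with 8 within 100 bp. Other motifs were also searched on both strands. AP-1 (TGANTCA) was found in 9.82% of windows at FOXA2-only sites (6.58 to 14.4) against 6.16% of all windows, but at shared sites the share was 12.2% (8.17 to 17.7). The TEAD motif (GGAATG) was found in 9.82% against 12.2% and the motif of GATA factors, with the letters AGATAA, in 6.70% against 7.90%. The RUNX motif (TGTGGTT) was found in 3.57% against 3.70% and the SOX motif (ACAATGG) in 2.68% against 2.48%. The relaxed forkhead form TGTTTGC was found in 2.68% of windows at FOXA2-only sites against 3.40% of all, and the other relaxed form, TATTTAC, in 2.68% against 2.03%. For a match to any of the 3 forkhead forms the share was 18.3% (13.8 to 23.9), against 15.5% of windows at shared sites (10.9 to 21.4), 16.9% of the 531 windows at sites of both FOXA2 lists with a FOXA1 peak and 7.98% of all windows. The intervals of FOXA2-only and shared sites overlapped for TGTTTAC and for any form. The median GC content was 62.3% in windows at FOXA2-only sites and in all windows, and 59.0% in windows at shared sites. A match describes these letters only, and several of the 224 windows overlap a neighbour. The 224 windows were touched by 174 sites, so some windows share a site, and those of MCM7 and AP4M1 share a match. The intervals count each window as independent and are too narrow to that extent.

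**Figure D1:**
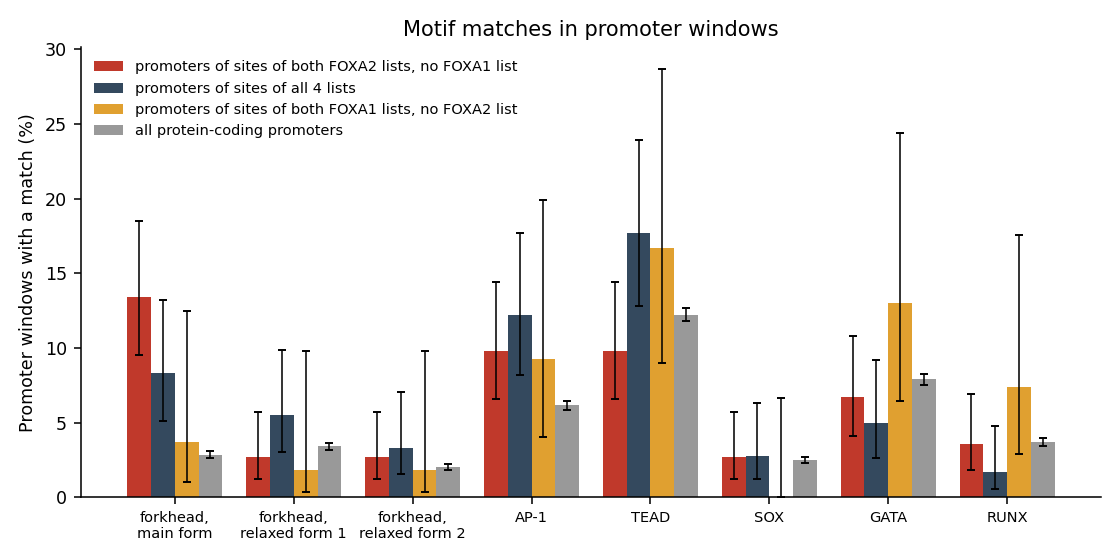
Share of promoter windows with a match to each motif (vertical axis, percent), for windows touched by FOXA2-only sites (224), shared sites (181) and FOXA1-only sites (54) and for all 22012 windows; error bars are Wilson 95% intervals. The main forkhead form was found in 13.4% of the windows at FOXA2-only sites and in 2.86% of all windows, and AP-1 in 9.82% and 6.16%, with 12.2% at shared sites.

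FOXA2-only sites were weaker than shared sites in every FOXA2 library and lay near the middle of the FOXA2 lists. The lists themselves differ in their limits: the weakest peak had an irreproducible discovery rate (IDR, a measure of disagreement between replicates) of 0.350 in the full-length FOXA2 list and 0.251 in the FOXA2 dCTD list, against 0.200 and 0.0501 in the lists of full-length FOXA1 and FOXA1 dCTD. The lowest −log10 p of a list was 1.52 and 2.09 for FOXA2 and 2.44 for both FOXA1 lists. At FOXA2-only sites the median −log10 p was 2.27 and 2.44 in the replicates of full-length FOXA2 and 4.17 and 3.94 in those of FOXA2 dCTD. At shared sites the corresponding medians were 3.84 and 4.11, and 5.86 and 5.86. The order was thus the same in all 4 libraries, although the ranges overlapped almost wholly. 

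Taking as the strength of a site the lower −log10 p of the replicates in the weaker of both FOXA2 lists, the share of FOXA2-only sites fell along the deciles of strength. They made up 45.5% of the 2274 sites of decile 1, the weakest, 21.6% of decile 5 and 8.67% of decile 10. The share of shared sites went from 18.4% in decile 1 to 68.0% in decile 10. FOXA2-only sites were also narrower, with a median width of 706 bp against 1017 bp at shared sites and 756 bp at FOXA1-only sites. Within its own lists a FOXA1-only site ranked much as a FOXA2-only site did: the median percentile was 50.9 and 46.2 in the lists of full-length FOXA1 and FOXA1 dCTD, and that of FOXA2-only sites was 45.0 and 53.9 in the lists of full-length FOXA2 and FOXA2 dCTD.

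**Figure D2:**
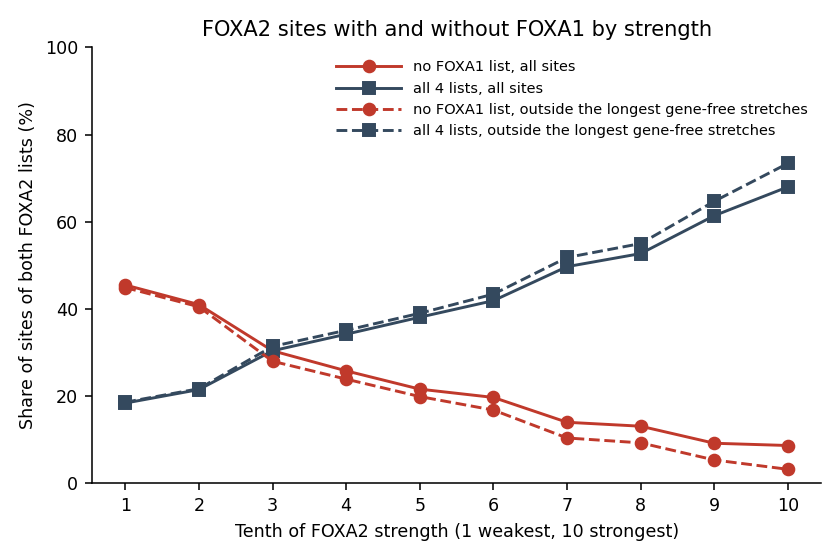
Share of the sites of both FOXA2 lists (vertical axis, percent) that had no FOXA1 peak (circles) or were in all 4 lists (squares), by decile of FOXA2 strength from the weakest (1) to the strongest (10), for all sites (solid) and outside the longest gene-free stretch of each chromosome (dashed). The share without FOXA1 fell from 45.5% to 8.67% over all sites and to 3.21% outside those stretches.

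Few FOXA2-only sites met a strict limit. An IDR of at most 0.05 in both FOXA2 lists was reached by 127 of the 5207 (2.44%), against 1052 of the 9465 shared sites (11.1%). Most of these 127 lay in a particular part of the genome, described next. The nearest FOXA1 peak was a median of 13397 bp from a FOXA2-only site. It lay within 1 kb of 393 sites (7.55%) and within 10 kb of 2212 (42.5%). Just inside the rule were chr5:56697829-56698557, 6 bp from a FOXA1 peak, chr5:28760978-28762009 at 23 bp and chr1:199182968-199183498 at 32 bp. Just outside it were chr4:30319168-30322098, whose largest overlap with a FOXA1 peak was 7 bp, chr7:90345901-90347103 at 9 bp and chr10:106981054-106982812 at 15 bp.

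A strong minority of FOXA2-only sites lay in long stretches of the genome that hold no annotated gene. The longest such stretch was taken on each chromosome, 23 stretches and 164 Mb in all; most lie at centromeres, where the GRCh38 assembly holds models of satellite repeats. They held 752 FOXA2-only sites, or 14.4% (13.5 to 15.4), against 1.53% of shared sites (1.30 to 1.80), 5.16% of FOXA1-only sites (4.58 to 5.82) and 3.78% of all merged sites. The difference from shared sites was 12.9 percentage points (Newcombe 95% interval 11.9 to 13.9). Over all 30 gene-free stretches of at least 1 Mb, a setting chosen after the data were seen, the count was 918 (17.6%). These stretches held 103 of the 127 sites with an IDR of at most 0.05 in both FOXA2 lists (81.1%), and the longest ones alone held 76 (59.8%). Of the 1052 shared sites at that limit, 40 lay in stretches of at least 1 Mb (3.80%). How reads that align to several places were treated is not given in the sources used here, and its part in these counts was not tested.

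The sites were unevenly spread over the stretches. The 8 with the most FOXA2-only sites, named after their values were seen, held 751 of the 5207 (14.4%) in 27.4 Mb, and 4 shared sites. They also held 107 merged sites with a peak of either FOXA1 list. Of these, 59 lay on chromosome 4 and 22 on chromosome 11. On chromosome 19 the stretch chr19:24179012-27681071 held 166 FOXA2-only sites, 47.4 per Mb, and no peak of either FOXA1 list. Outside that stretch chromosome 19 had 21 FOXA2-only sites. The stretch of chromosome 5 (chr5:45696381-50396191) held 146, that of chromosome 4 (chr4:49589729-51833883) held 123, chromosome 11 held 79 and chromosome 18 held 75. The acrocentric chromosomes, whose centromere lies near one end, had 60 on chromosome 22, 57 on chromosome 14 and 45 on chromosome 21. The distance from one FOXA2-only site to the next was a median of 10.3 kb on chromosome 19, 10.6 kb on chromosome 5 and 9.54 kb on chromosome 4.

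Other stretches showed the reverse. The longest one of chromosome 1 (chr1:121571889-143299517) held 6 FOXA2-only sites but 107 shared and 188 FOXA1-only sites. That of chromosome 13 (chr13:409913-18176736) held 6, 30 and 54. FOXA1 peaks were thus present in some gene-free stretches and listed nowhere in others. In the longest stretches of chromosomes 14, 16, 17, 21, 22 and X no FOXA2-only site was found, with 2 FOXA1-only sites each on chromosomes 16 and 17 and none on the others. Those of chromosomes 21 and 22 held 0 merged sites of any list and that of chromosome 14 held 1, so the sets cannot be compared there.

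**Figure D3:**
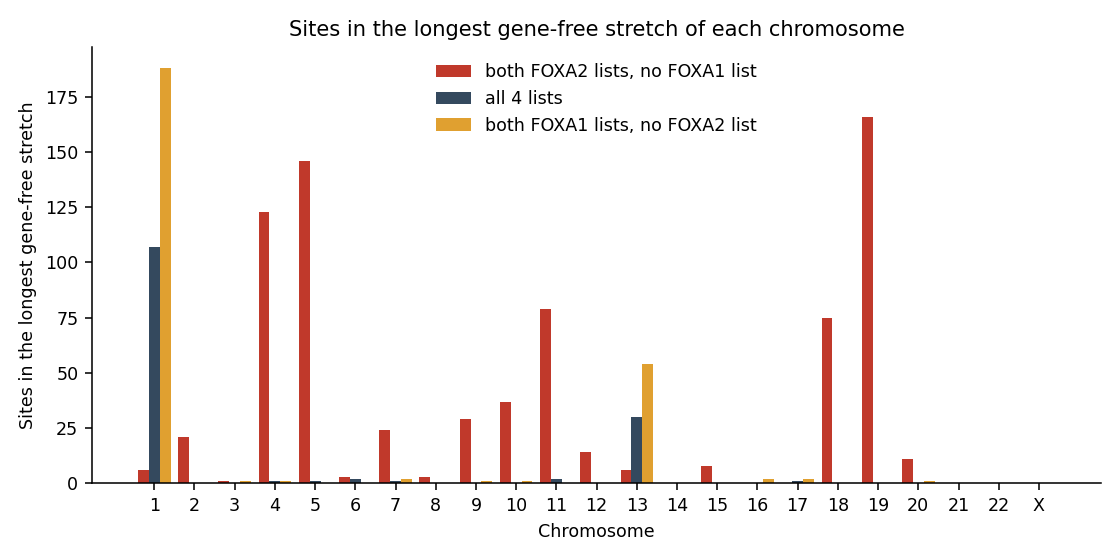
Number of sites (vertical axis) in the longest gene-free stretch of each chromosome (horizontal axis), as bars for FOXA2-only, shared and FOXA1-only sites. FOXA2-only sites number 166 on chromosome 19, 146 on chromosome 5 and 123 on chromosome 4, where shared sites number 0, 1 and 1; on chromosome 1 there are 6 against 107 shared and 188 FOXA1-only sites.

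Sites in these stretches included the strongest FOXA2-only sites. At chr19:26978578-26978970 the −log10 p was 21.9 and 26.6 in the replicates of full-length FOXA2 and 38.3 and 30.3 in those of FOXA2 dCTD. At chr5:49128494-49128860 it was 19 and 19.4, and 42.6 and 34.9. Both were high in every FOXA2 library. In the list of the first SOX2 replicate both also had a peak, of fold enrichment 8.92 and 3.42. The first fusion replicate had a peak at the chromosome 19 site, of fold enrichment 7.61, and none at the chromosome 5 site. Of the 10 strongest FOXA2-only sites outside the longest stretches, 8 still lay in gene-free stretches of at least 1 Mb, on chromosomes 14, 21 and 22. The highest of these, chr22:14951120-14951566, had 20.4 and 20.4 at full length and 66.0 and 24.6 as dCTD. That site also had a peak of the first SOX2 and fusion replicates, of fold enrichment 5.67 and 3.56. Others of the 8 had neither.

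The dCTD replicates differed from each other at such sites. Over the 752 sites inside the longest stretches the median was 6.83 in one dCTD replicate and 3.99 in the other, while outside them it was 3.64 and 3.91. For full-length FOXA2 the medians inside were 4.14 and 3.53, against 2.27 and 2.36 outside. All 4 libraries therefore had higher medians inside, the second dCTD column by the least. The columns carry no replicate number, so which replicate is meant is unknown. Sites inside were narrower, with a median of 495 bp against 736 bp outside, and the summits of both FOXA2 forms lay closer together, a median of 20.0 bp apart against 45.0 bp.

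**Figure D4:**
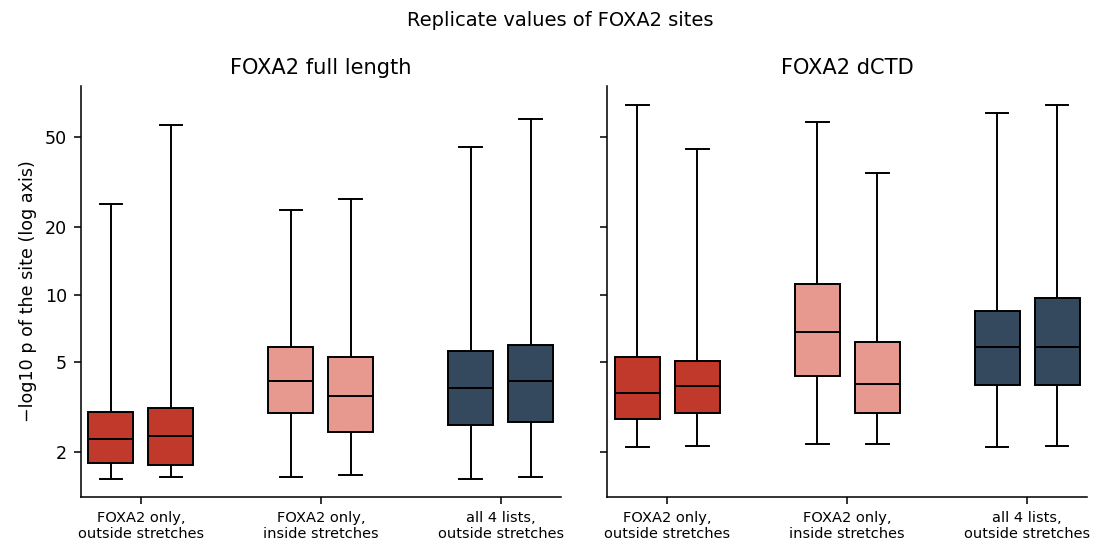
Peak strength (−log10 p, log axis) in each replicate column of full-length FOXA2 (left) and FOXA2 dCTD (right), for FOXA2-only sites outside and inside the longest gene-free stretches and for shared sites outside them; boxes are quartiles with the median, whiskers the lowest and highest site. FOXA2-only sites outside the stretches have the lowest medians in every column, 2.27 and 2.36 at full length and 3.64 and 3.91 as dCTD.

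Away from the longest stretches, 4455 FOXA2-only sites remained. Of the 10 strongest, the pair outside gene-free stretches lay in TBC1D22A and ARID5B. A site in TBC1D22A, a member of the Rab GTPase-activating protein family (chr22:47003036-47006237), had 21.9 and 21.9 at full length and 12.6 and 14.5 as dCTD. A site in ARID5B, an AT-rich interaction domain protein (chr10:61936950-61938679), had 18.0 and 12.6 at full length and 33.2 and 44.4 as dCTD. Both full-length values were above both dCTD values at TBC1D22A, and both were below them at ARID5B. The ARID5B site also had a FOXA3 dCTD peak, of 13.7 and 24.2 in its replicates. It had a peak of the first SOX2 and fusion replicates too, of fold enrichment 5.13 and 6.66. The TBC1D22A site had none of these peaks. No exons are listed in the gene annotation used, so whether a site inside a gene is exonic or intronic is not said.

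Of the sites outside the longest stretches with a FOXA3 dCTD peak, the 4 strongest after ARID5B were these. A site in TMEM131 (chr2:97890565-97891642) had 12 and 12.6 at full length, 13.6 and 18.4 as dCTD, and a FOXA3 dCTD peak of 10.0 and 10.4. One in HERC1, which encodes a giant ubiquitin ligase (chr15:63717671-63719997), had 11.2 and 10.1 at full length, 15.3 and 27.8 as dCTD, and a FOXA3 dCTD peak of 14.3 and 23.2. A site 44.9 kb from GPRIN3 (chr4:89351876-89353259) had 14.3 and 11.3, and 16.0 and 17.2, with 8.30 and 15.0 for FOXA3 dCTD; it lay 220 bp from a FOXA1 peak. A site 750 kb from ASB3 (chr2:52919674-52920849) had 12.2 and 13.2, and 21.9 and 19.6, with 13.1 and 19.8 for FOXA3 dCTD, and lay 4391 bp from one. Strong sites outside all stretches of at least 1 Mb with no FOXA3 dCTD peak, named after their values were seen, were those of TBC1D22A above, one 1422 kb from EFNA5, an ephrin gene (chr5:105954214-105955127), and one 186 kb from ATF7IP (chr12:14178614-14179919). The EFNA5 site had 12.4 and 16.3 at full length and 15.8 and 14.2 as dCTD. The ATF7IP site had 9.64 and 11.8, and 14.5 and 13.6.

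FOXA3, the third member of the family, was found at FOXA2-only sites less often than at shared sites and, away from the gene-free stretches, more often than at FOXA1-only sites. Outside the longest stretches a FOXA3 dCTD peak overlapped 313 of 4455 FOXA2-only sites, or 7.03% (6.31 to 7.81), 21.9% of shared sites (21.1 to 22.8) and 1.35% of FOXA1-only sites (1.06 to 1.73). The difference from shared sites was −14.9 points (−16.0 to −13.8) and that from FOXA1-only sites 5.67 points (4.86 to 6.51). Among all merged sites 5.66% had such a peak outside the stretches, which is below the share of FOXA2-only sites there. Over the whole genome 6.17% of all merged sites had one, close to the 6.20% of FOXA2-only sites (5.58 to 6.89). Shared sites were selected on peaks of both FOXA1 and FOXA2. Whether their higher FOXA3 share follows from that selection was not tested. Compared with shared sites, FOXA2-only sites had the lower share in all 10 deciles of strength, for example 24.6% against 40.3% in decile 10 outside the stretches.

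Inside the longest stretches, 10 of 752 FOXA2-only sites had a FOXA3 dCTD peak, or 1.33%, against 87.6% of 145 shared and 58.5% of 253 FOXA1-only sites. The sets lie in different stretches, however: those of chromosomes 1 and 13 hold most of these shared and FOXA1-only sites and 6 FOXA2-only sites each, so the shares do not compare the sets within the same stretches. Over all sites together the shares were 6.20%, 22.9% and 4.30%. For full-length FOXA3 the shares over all sites were 5.11%, 20.3% and 4.65%. That of FOXA2-only sites (4.54 to 5.74) was close to the 5.50% of all merged sites. However, 4981 of the 6082 rows of the full-length FOXA3 list are identical to rows of the FOXA3 dCTD list. Its 1101 own rows overlapped 0.634% of FOXA2-only sites, 2.55% of shared and 3.10% of FOXA1-only sites.

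The fusion of SOX2 with the FOXA2 CTD asks whether a protein with that domain but another DNA-binding domain is found at the same sites. By the rule, every FOXA2-only site also had a peak of FOXA2 without the CTD. The combined list of the fusion overlapped 3.88% of FOXA2-only sites (3.39 to 4.44) and 4.71% of FOXA1-only sites (4.15 to 5.34). It overlapped 3.55% of shared sites and 2.76% of all merged sites. The highest IDR in that list was 0.912, against 0.0100 in the FOXA3 dCTD list and 0.100 in the combined SOX2 list. Its peaks were thus held to a far looser limit of agreement between replicates. The difference from FOXA1-only sites, −0.83 points (−1.63 to −0.04), changed sign when the longest gene-free stretches were left out. There the shares were 2.29% and 0.753%, a difference of 1.54 points (1.04 to 2.06), with 2.22% of shared sites and 1.57% of all merged sites. The strongest FOXA2-only site with a fusion peak outside the longest stretches was chr3:90998881-90999365, whose nearest protein-coding gene was EPHA3 at 1517 kb, with 8.44 and 5.34 for full-length FOXA2, 7.26 and 5.08 for FOXA2 dCTD and 4.33 and 3.01 for the fusion. Next were a site 16.0 kb from KCNMB2 (chr3:178860167-178860654), one in TXK, a kinase of T cells (chr4:48127254-48128472), one 113 kb from PCDH15 (chr10:55739871-55741474) and one 181 kb from DLGAP1 (chr18:4635632-4638091). Fusion values over the latter 4 were 3.20 to 9.02, and FOXA2 values over the same sites 3.13 to 13.2. At KCNMB2 both fusion values, 4.04 and 4.28, were below the lowest FOXA2 value, 4.39. At TXK the lower fusion value, 3.20, was below the lowest FOXA2 value, 3.62. At PCDH15 and DLGAP1 both fusion values lay between the lowest and highest FOXA2 values of the site. These values come from different libraries, whose depth is unknown. The EPHA3 and PCDH15 sites also had a peak in the list of the first SOX2 replicate. The PCDH15 site had no peak in the list of the first fusion replicate. Those of KCNMB2, TXK and DLGAP1 had no such SOX2 peak but had a FOXA3 dCTD peak.

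The list of the first fusion replicate alone, which is longer, overlapped 11.5% of FOXA2-only sites outside the stretches (10.6 to 12.5). This share was 10.8% at shared sites, a difference of 0.69 points (−0.42 to 1.84), and 3.85% at FOXA1-only sites, a difference of 7.64 points (6.56 to 8.74). Over all sites it was 15.0%, 11.2% and 3.71%, beside 7.69% of all merged sites. SOX2 without the FOXA2 domain gave 4.53% of FOXA2-only, 5.58% of shared and 1.23% of FOXA1-only sites in the list of its first replicate outside the stretches, beside 3.09% of all merged sites there and 3.63% over the whole genome. In the lists of the first replicates FOXA2-only sites thus exceeded FOXA1-only sites for SOX2 as well as for the fusion. The combined SOX2 list is much thinner there, with a peak at 4 of 4455 FOXA2-only and 0 of 4650 FOXA1-only sites. The lists of both proteins differ in length, 13977 and 42705 peaks, and their shares were not compared with each other.

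Inside the stretches the lists of SOX2 and of the fusion differed. The first SOX2 replicate had a peak at 300 of 752 FOXA2-only sites (39.9%) and at 0 of 253 FOXA1-only sites, for which 0 allows up to 1.50% by the Wilson interval. The combined SOX2 list had a peak at 44 of the 752 (5.85%) and at 163 of the 253 (64.4%). Over all sites the combined list overlapped 0.922% of FOXA2-only, 1.38% of shared and 3.32% of FOXA1-only sites, and 0.983% of all merged sites. For the fusion the first replicate overlapped 35.6% of FOXA2-only and 1.19% of FOXA1-only sites inside, and the combined list 13.3% and 77.5%. The first-replicate and combined lists thus gave opposite orders inside the stretches for SOX2 and for the fusion, and the cause was not tested. Here too most FOXA1-only sites are those of chromosomes 1 and 13.

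**Figure D5:**
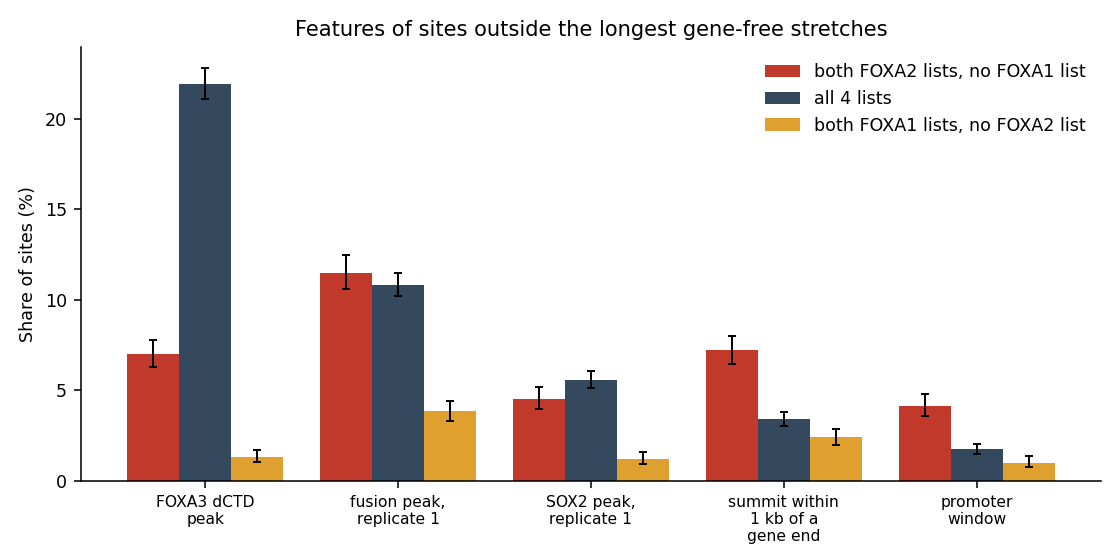
Share of FOXA2-only, shared and FOXA1-only sites outside the longest gene-free stretches (vertical axis, percent) with a peak of FOXA3 dCTD, of the first fusion replicate or of the first SOX2 replicate, with a summit within 1 kb of a gene end, or on a promoter window; error bars are Wilson 95% intervals. For FOXA3 the FOXA2-only sites lie at 7.03%, between 21.9% and 1.35%, and near genes they have the highest share, 7.21% against 3.41% and 2.41%.

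FOXA2-only sites were found near gene ends more often than either other set. A protein-coding gene began or ended within 1 kb of the summit at 321 sites, or 6.16% (5.54 to 6.85), against 3.36% of shared sites (3.02 to 3.74), 2.28% of FOXA1-only sites (1.90 to 2.74) and 4.52% of all merged sites. The difference from shared sites was 2.81 points (2.08 to 3.57), and outside the longest stretches 3.79 (2.97 to 4.66). Outside the stretches 4.70% of all merged sites lay near a gene end. In 9 of 10 deciles of strength FOXA2-only sites had the higher share, both over all sites and outside the stretches. In the strongest decile 65 of the 197 FOXA2-only sites lay outside the stretches, and 1.54% of these were near a gene end against 3.23% of shared sites. With so few sites that share is coarse, and inside the stretches no site can lie near a gene. In contrast, outside the longest stretches the share of sites inside a protein-coding gene was close to that of shared sites. It was 50.2% against 49.7%, a difference of 0.55 points (−1.24 to 2.33). Outside all gene-free stretches of at least 1 Mb this difference was 2.46 points (0.656 to 4.27). Of FOXA1-only sites outside the longest stretches 44.9% lay inside a gene, a difference of 5.35 points (3.30 to 7.40).

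Promoter windows gave the same order of the sets, and FOXA2-only sites had the higher share in 8 of 10 deciles outside the stretches. Outside the longest stretches and off chromosome 8, which was left out of this comparison, 174 of 4187 FOXA2-only sites touched a window, or 4.16% (3.59 to 4.80), against 1.75% of shared sites (1.50 to 2.05) and 1.01% of FOXA1-only sites (0.756 to 1.36). The share of all merged sites was 2.57% outside the stretches and 2.46% with them. A summit lay within 1 kb of a start at 6.31%, 2.08% and 1.34% of these sites. The full-length replicates were not alike at promoters. Among the 174 sites one replicate column was the higher at 67.8%, and at 52.7% of the other FOXA2-only sites; at the 152 shared sites on promoters it was the higher at 43.4%. Its median was 2.85 on promoters against 2.27 in the other column.

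The 5 strongest sites that touched a promoter window are given next. A site over the start of CBX5, which encodes heterochromatin protein HP1 alpha, and in HNRNPA1, a splicing regulator (chr12:54278983-54280942), had 5.08 and 7.43 at full length, 7.71 and 8.43 as dCTD, and a FOXA3 dCTD peak of 8.30 and 10.2. At the start shared by CHTOP, which encodes an mRNA export factor, and S100A13, which encodes a calcium-binding protein (chr1:153633849-153634645), the values were 4.71 and 36.0, and 4.39 and 7.81. CTDSP2, the gene of a small phosphatase (chr12:57846236-57847079), had 10.8 and 17.6, and 4.33 and 7.81. AHI1, which encodes a protein of the primary cilium (chr6:135496360-135497866), had 4.27 and 4.08, and 7.47 and 11.1. SQSTM1, the gene of the autophagy receptor p62 (chr5:179820916-179823176), had 4.27 and 21.9, and 3.96 and 4.42. The values at CHTOP and SQSTM1 show 1 full-length replicate far above the other.

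FOXA2-only sites were more often stronger in the dCTD list than shared sites were, and the difference was smaller with shared sites weighted by strength. The −log10 p in the weaker replicate was higher in the FOXA2 dCTD list at 4563 of 5207 FOXA2-only sites, or 87.6% (86.7 to 88.5), against 77.3% of shared sites (76.4 to 78.1) and 81.7% of all sites of both FOXA2 lists. This difference, 10.3 points (9.09 to 11.6), went with strength. In deciles 1 and 2 the share was 100% in both sets, because the dCTD list holds no value below 2.09. Across the other deciles FOXA2-only sites had the lower share in 4 and the higher in 4. With shared sites weighted to the deciles of FOXA2-only sites the difference was 1.35 points (0.326 to 2.38). Strength is itself the lower of the 2 values compared here, and in decile 3 the shares were 97.5% and 96.7%. The weakest deciles thus leave little room for a difference, and the weighting cannot show that the sets are alike at like strength. Inside the gene-free stretches it was −9.49 points (−15.7 to −1.88), with 73.3% against 82.8%.

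Genes with a FOXA2-only site in them or within 10 kb numbered 2421 of 19974 protein-coding genes, or 12.1%. Lists of genes of tissues in which FOXA factors act were looked up among them. Of 16 regulators of definitive endoderm and gut only GATA6 had such a site. The values there were 3.84 and 1.74 at full length and 2.80 and 3.96 as dCTD. Of 16 liver genes none had such a site. A shared site was found at 3 of the liver genes (18.8%), near the 18.9% of all protein-coding genes. Of 12 luminal and prostate genes, ESR1, the estrogen receptor, and GREB1, one of its targets, had one each. ESR1 had 1.59 and 1.74 at full length and 4.39 and 3.96 as dCTD. GREB1 had the same full-length values, with 4.39 and 2.36 as dCTD. The lowest value of the full-length list is 1.52. GATA6, ESR1 and GREB1 each also had 1 shared site, and GATA6 and ESR1 each had 1 FOXA1-only site. The lists hold 12 to 16 genes, so a share of a list is coarse, and the median gene length was 6.54 kb in the endoderm list and 10.7 kb in the liver list against 24.2 kb for all genes.

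Lists of genes expressed in mesenchymal cells or active in the epithelial-mesenchymal transition gave 2 to 4 genes each. Of 14 osteoblast and mesenchymal genes, RUNX2, the master regulator of bone formation, had a site over one end of the gene (chr6:45328192-45328987; 2.34 and 2.44 at full length, 3.57 and 4.85 as dCTD), and ALPL, the alkaline phosphatase of bone, had one. RUNX2 also had 1 FOXA1-only site. Of 14 AP-1 and YAP-TEAD genes, 4 had a site (28.6%): FOSL2, TEAD1, CCN1 and LATS2. The TEAD1 site (chr11:12723585-12724686) had 2.38 and 2.20 at full length and 6.76 and 6.78 as dCTD. None of these 4 had a shared or FOXA1-only site, but 4 other genes of the list had a shared one. That is 28.6% of the list, against 18.9% of all protein-coding genes. Of 12 genes of the epithelial-mesenchymal transition, 4 had a site (33.3%), with a median gene length of 81.5 kb against 24.2 kb for all genes. They were GRHL2, an epithelial regulator, SNAI1 and ZEB2, repressors of epithelial genes, and TGFBR2, a receptor of TGF-beta. The SNAI1 site had 2.38 and 3.34 at full length and 3.52 and 3.54 as dCTD. LATS2 and ZEB2, the fourth of their lists in strength, were named after their values were seen, to complete the counts. Of 16 ribosomal protein genes, a set for comparison, 2 had a site (12.5%).

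Few genes held many FOXA2-only sites: 13 held at least 5. TTC28 held the most, 10 in 0.702 Mb (chr22:27978014-28679840), along with 10 shared sites. EYS, a gene of photoreceptors, held 9 beside 11 shared sites, and PCDH15, a cadherin of the inner ear and retina, 8 beside 17. These 3 are long genes in which shared sites were at least as many. NBPF26 held 8 in 0.118 Mb beside 2 shared sites; it belongs to a family of near-identical copies, so its count is uncertain. Among genes with at least 5 FOXA2-only sites, TRIO and DST had 13.6 and 10.1 per Mb. BCAS3 had 6.99 per Mb. The strongest TTC28 site had a strength of 3.53, which falls in decile 8 (3.02 to 3.69).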

How the data were processed

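Flag ChIP-seq lists of 8 factor groups were used, each made by the authors from 2 biological replicates; the input sample was not used. Per the submitters' processing notes, Bowtie2 2.4.4, MACS2, SAMtools 0.1.18, FastQC 0.10.1, Trim Galore and deepTools 2.4.1 were used, with hg38; their settings are not given in the sources used here. The deposited values are −log10 p per replicate, −log10 IDR and an IDR score of the authors, and for the first replicates of SOX2 and the fusion a fold enrichment ratio over background per the file layout. Of 14 deposited lists 10 were used, and 4 were copies. No column of another sample was present.

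Merged sites, overlaps, shares, Wilson and Newcombe 95% intervals were computed with Python 3.11.15, pandas 2.3.3 and numpy 2.4.6, and were tested on simulated data. Genes and promoters came from RefSeq (GRCh38.p14), with 19974 protein-coding genes. Members, gene lists and rules were chosen with earlier results of these data known. Sites named are the 10 strongest outside the longest gene-free stretches, the strongest with FOXA3, fusion or promoter overlap, the 3 nearest each side of the rule, the genes with the most sites, and up to 3 per gene list; others are said to be chosen later. One gene that this rule names is not reported here. Alternatives were a 1 kb margin, summits within 100 bp, stricter IDR, equal list lengths, stretches left out, other gene ends and other lists.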

Additional observations from a re-analysis of the deposited data

Results flagged for a closer look

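On contigs outside chromosomes 1 to 22, X and Y, which none of the comparisons used, 58 sites met the rule for FOXA2-only sites. They were among 983 merged sites on 214 contigs, of which 218 were in both FOXA2 lists. On chromosomes 1 to 22 and X the rule was met by 5.04% of merged sites and 22.9% of sites of both FOXA2 lists. Whether the contigs differ from these shares was not tested. No control list was measured the same way, and these sites were not analysed further.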

How the results depend on the processing

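No paired analysis was possible because each group has 1 combined list whose columns carry no replicate number; for the same reason no replicate could be left out. The planned share of sites with a forkhead motif near the summit, with its alternatives, was not run, since a genome was not used here. The 5207 FOXA2-only sites became 143 at an IDR of at most 0.05 in all 4 lists and 127 when this held for FOXA2 alone; the other 5 settings gave 4107 to 5143. The FOXA3 dCTD difference from shared sites (−16.7 points) stayed negative in all 8 alternatives, at −22.7 and −24.2 under those IDR limits, −19.2 with summits, −14.9 and −14.7 without the longest or all 1 Mb gene-free stretches and −9.77 weighted for strength. For full-length FOXA3 (−15.1) the same first 5 gave −19.3, −20.6, −17.5, −13.6 and −13.4, and −1.91 without copied rows. The fusion difference (−0.83) reversed in 6 of 9 alternatives: 4.90 and 6.40 with strict IDR, 1.54 and 1.62 without stretches, and 11.3 and 7.64 with the first replicate's list, over all sites and outside the longest stretches. The gene end difference (2.81) became −0.32 and −1.88 with strict IDR, where most of the sites lie in gene-free stretches, 3.79 and 4.07 without stretches and 3.67 within 2.5 kb. The dCTD difference (10.3) became −0.91 and 0.69 with strict IDR, 8.34 with summits, 12.8 and 13.6 without stretches and 1.35 weighted for strength. Strict limits leave few sites; other causes were not tested. The weighting, the 1 Mb stretches and the fusion setting outside stretches were chosen after seeing the data.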
